A study of Tigriopus californicus with 32 samples.

Results

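The genes described here are 135 transcripts of the tidepool copepod Tigriopus californicus that were raised in San Diego (SD-S) animals kept in a variable thermal regime. A gene was a member when its value in 20V was at least 2 times that in 20NV in each of the 2 column suffixes of the deposited SD-S table, and its mean 20V value was at least 10 scaled RPM (reads per library, scaled for library size by the authors). The members were thus chosen by their 20V and 20NV values in SD-S. Of 17929 genes in that table, 141 (0.786%) passed, 6 of these were set aside by the rule, and 135 remained. The rule sets 12 genes aside by name, among them Hsp70, small heat-shock, cuticle and lectin genes. Where they were in a table, these 12 count below among all genes and among the genes that are not members. The whole series lists 21556 genes. The rule read the SD-S 20V and 20NV libraries, so the difference between them is given as a description with no test.

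Whole adults were pooled, 50 males and 50 females to a library, from 4 populations: SD-S and Bird Rock (BR-S) in the south, and Santa Cruz (SC-N) and Bodega Bay (BB-N) in the north of California. Copepods were born and reared either in a variable regime, with a cool phase at 20° and a warm phase at 28° of 12 hr apiece, or in a nonvariable 20° regime. The treatments were 28V (variable regime, 2 hr into the warm phase), 28ST (nonvariable regime, 2 hr after a first transfer to 28°), 20V (variable regime, end of the cool phase) and 20NV (nonvariable regime at 20°). Each population and treatment had 2 libraries, named here suffix a and suffix b after the table columns, 32 in all, and the suffix was used as a block that stands for the sequencing lane.

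The exoskeleton of a crustacean is built from chitin fibres and cuticle proteins that bind them, and it is renewed at each moult, a cycle under hormonal control that ends in the adult stage of copepods. Small heat-shock proteins are chaperones that hold unfolding proteins without using ATP, and they are among the classic heat-inducible genes of animals. Because whole animals were pooled, a change in the number of cells of a type and a change in RNA per cell cannot be told apart here.

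Reads recovered from the deposited values, summed over the genes kept, numbered between 3647378 and 14509087 per library (5292550 to 14252927 in SD-S). These sums are below the sequenced and mapped totals. By them suffix b was the deeper one in 16 of 16 pairs. The SC-N 28V library of suffix a, the BR-S 20V library of suffix b and the SC-N 20NV library of suffix a lay far below their partners in the members' levels, and the affected results are given with and without them. Muscle genes (37 in SD-S, none a member) summed to between 8826 and 14990 RPM in the 8 SD-S libraries.

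The members covered much of the range of expression. Their mean 20V values ran between 10.6 and 2519 RPM with a median of 67.6, and the smaller of the 2 suffix ratios ran between 2.02 and 11.2 with a median of 3.06. Every member had reads in all 4 libraries, the fewest in a 20NV library being 4. Genome-derived transcripts (GT) made up 65.9% of the members (89 of 135), against 64.2% of the table, and the other 46 were de novo transcripts (DNT). In the opposite direction, 42 genes of the table met the mirrored rule (at least 2 times lower in 20V in both suffixes, with a mean 20NV value of at least 10).

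Members just inside the ratio limit were TCALIF_09919 (Spt transcription factor family, 2.02) and comp42480_c0_seq1_27727 (2.03), and the nearest genes outside it were TCALIF_05975 (1.97) and comp40748_c0_seq2_25640 (1.98). At the level limit, TCALIF_11051 (mean 20V value 10.6) and TCALIF_01495 (10.8) were inside, and TCALIF_01809 (9.49) and TCALIF_07922 (9.70) were outside. These neighbours on either side of a limit differed by little.

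The annotation named 80 of the 135 members, 51 were listed without a description and 4 were not in the annotation lists used. Of the named ones, 12 were only hypothetical, predicted or uncharacterized proteins. Cuticle proteins were the largest named group with 12 members of the 73 genes in the table that were described as cuticle genes. Small heat-shock proteins followed with 4 of 12, and there were 2 chitin deacetylases, enzymes that remove acetyl groups from chitin. Single members came from the lists of large heat-shock proteins and co-chaperones (1 of 26), lectins and selectins (1 of 11), bcs-1 genes (1 of 4), reproduction genes (1 of 23) and moult genes (1 of 4), and none from 37 muscle genes. Genes set aside by name, among them Hsp70 and lectin genes, could not become members but stay in these totals. The counts therefore do not tell how many genes of a list met the limits. The annotation lists used held 4508 genes of the series, 3334 of them with a description. A gene without a description could not enter a gene list. Every list total in the text thus counts described genes and not a whole gene family. Whether genes that responded in the study were described more often was not tested. Descriptions that occurred in 2 members each, noted after the values were seen, were torso-like proteins (known in Drosophila for their part in activating the Torso receptor), DOMON domain proteins, Ves g 5 allergens, venom dipeptidyl peptidases, retinaldehyde-binding proteins, fem-1 proteins and furin-type proprotein convertases.

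Of the GT members, 11 stood in 5 runs of consecutive identifier numbers. The longest were TCALIF_10124 to TCALIF_10126, 3 cuticle proteins, with TCALIF_10120 and TCALIF_10121, 2 further cuticle proteins, close by in number. The files give no coordinates, so whether consecutive numbers mean neighbouring genes was not examined. Reads were counted by the study only when they mapped uniquely, and values of cuticle proteins that resemble each other in sequence are uncertain to that extent.

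The members with the largest smaller ratio were mostly without a description. All values of the 8 SD-S libraries below are RPM on 1 scale, trimmed-mean (TMM) scaled over the 8 libraries, with suffix a before suffix b. The strongest, comp50829_c0_seq1_44470, stood at 978 and 1275 in 20V, against 66.0 and 113 in 20NV. TCALIF_01412 stood at 233 and 261 in 20V, against 25.6 and 24 in 20NV. The most abundant member, comp43208_c1_seq1_28628, reached 2126 and 2927 in 20V, against 292 and 374 in 20NV. In each of these genes the 2 libraries of a treatment lay close together relative to the gap between treatments.

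At 28° the same genes lay mostly between these levels in SD-S. comp50829_c0_seq1_44470 stood at 894 and 390 in 28V, against 188 and 157 in 28ST. TCALIF_01412 stood at 190 and 91.3 in 28V, against 51.5 and 65.3 in 28ST. For comp43208_c1_seq1_28628 the values were 1934 and 1034 in 28V, against 684 and 282 in 28ST. The 28V libraries lay above the 28ST libraries in each case, in 28V the library of suffix a was the higher one, and for comp43208_c1_seq1_28628 the 28ST libraries overlapped 20NV.

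Of the other genes among the 12 of largest ratio, flexible cuticle protein 12 precursor (comp24610_c0_seq1_13069) stood at 112 and 196 in 20V, against 9.84 and 28.3 in 20NV. A somatomedin-B and thrombospondin type-1 domain protein (TCALIF_10840) stood at 114 and 155 in 20V, against 18.5 and 18.4 in 20NV. TCALIF_04494 stood at 536 and 449 in 20V, against 77.0 and 66.2 in 20NV. The others were the small heat-shock gene TCALIF_13523, described with its group, and TCALIF_02545, comp49814_c4_seq1_40728, TCALIF_11481, TCALIF_02751 and TCALIF_13855, whose 20V values ran between 22 and 304 and whose 20NV values ran between 2.17 and 38.2.

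**Figure D1:**
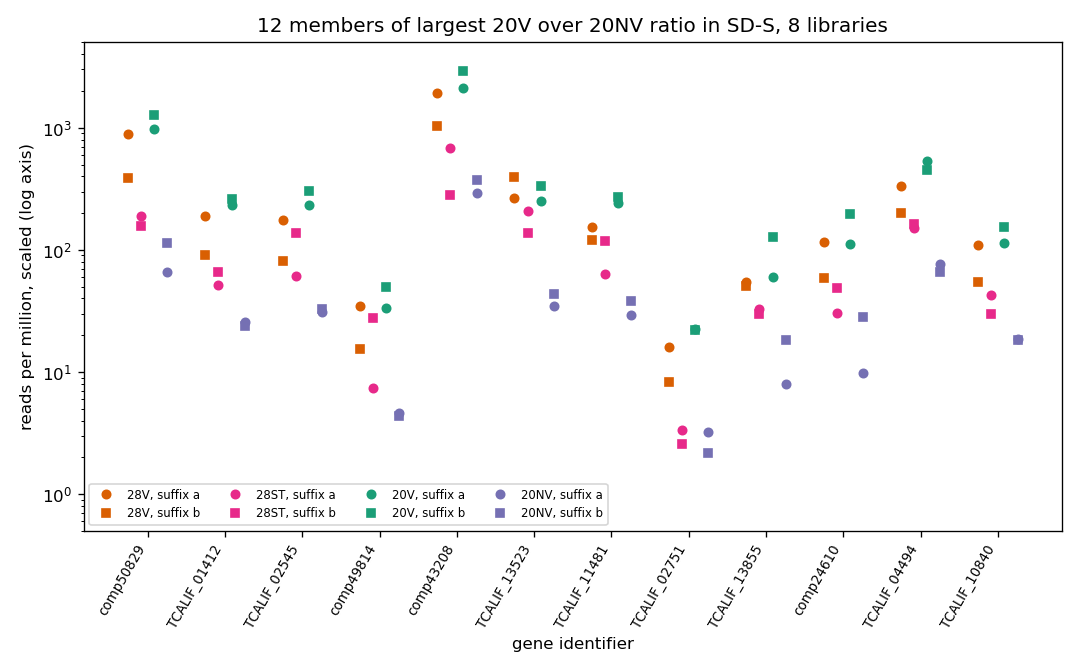
Scaled RPM (log axis) of the 12 members with the largest smaller ratio of 20V over 20NV in the 8 SD-S libraries, in the order 28V, 28ST, 20V and 20NV for each gene, with a circle for suffix a and a square for suffix b. All 12 are high in 20V and low in 20NV by the rule, and in most the 28V points lie above the 28ST points, with comp50829_c0_seq1_44470 at 894 and 390 in 28V and at 188 and 157 in 28ST.

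Together the members took 2.30% and 2.70% of the scaled reads in the 20V libraries of SD-S, against 0.555% and 0.533% in the 20NV libraries. They took 2.28% and 1.26% in the 28V libraries, against 1.03% and 0.710% in the 28ST libraries. SD-S 28ST against 20NV and 28V against 20V share libraries with the rule, so they carry no test. Both 28ST libraries lay above both 20NV libraries for 56 of 134 members (11% of all 17378 genes did), and 15 members were at least 2 times higher in 28ST in both suffixes (0.668% of all genes). Those 15 held all 4 small heat-shock members and the cuticle proteins TCALIF_10120, TCALIF_10121 and TCALIF_10125. Both 28V libraries lay below both 20V libraries for 62 of 134 members (13.4% of all genes) and above them for 2 (12.1%).

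The first comparison that the rule did not use was 28V against 28ST in SD-S, which asks whether the regime difference was also seen at 28°. The members' level was higher in 28V: the median log2 fold change was 0.75 over 133 members, against 0.00 over all 17389 genes tested, and 103 members (77.4%) were higher in both suffixes, against 26.6% of all genes. The 28V library of suffix b stood apart in other lists: 22 reproduction genes summed to 8152 RPM there, against 19158 to 30112 in the other 7 SD-S libraries, and its muscle sum of 14990 was the highest. Their part in the members' values was not tested, and without that library the median was 1.18. None of the members passed the test (limma on log2 of the value plus 1, with the suffix as a block, Benjamini-Hochberg adjusted over all genes), and 0% of all genes did in either direction. At an unadjusted p under 0.05, 84 members were higher (2.93% of all genes) and 3 were lower (2.78%). The edgeR likelihood ratio test on the recovered reads called 43 members higher (0.587% of all genes) and 1 lower (0.535%), and the edgeR quasi-likelihood test called 0. Both 28V libraries lay above both 28ST libraries for 70 members (13.7% of all genes), and 32 members were at least 2 times higher in both suffixes (0.46%).

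Among single members in that comparison, the DnaJ C7-like co-chaperone comp47962_c0_seq1_36323, which works with Hsp70, stood at 193 and 76.2 in 28V, against 61.1 and 28.9 in 28ST. Its log2 fold change was 1.5 ± 0.13 (SE), with an adjusted p of 0.30 in limma. The cuticle protein TCALIF_11363 stood at 110 and 74.0 in 28V, against 46.9 and 37.1 in 28ST, with a log2 fold change of 1.09 ± 0.13 and an adjusted p of 0.31 in limma. In both genes the 2 treatments did not overlap. The fits used the 4 libraries of this comparison scaled together, a scale that differs slightly from the 8-library values printed. Going the other way, the heat-shock protein beta-1 member comp47454_c0_seq1_35179 stood at 25.9 and 23.1 in 28V, against 46.7 and 60.3 in 28ST, with a log2 fold change of -1.09 ± 0.18 and an adjusted p of 0.44 in limma. Without the 28V library of suffix a, 1 member was called higher (0.0345% of all genes; TCALIF_06638, with no description and chosen after its value was seen), and without any other library none was.

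Not every member kept 1 direction in both suffixes at 28°, as a pair of cuticle genes shows. TCALIF_10120 stood at 48.8 and 32.5 in 28V, against 10.4 and 62.6 in 28ST. TCALIF_10121 stood at 50.7 and 36.0 in 28V, against 12.5 and 64.9 in 28ST. In both, 28V was the higher treatment in suffix a and the lower one in suffix b, and the groups overlapped. At 20° the suffixes of TCALIF_10120 were also far apart, at 17.7 and 59.1 in 20V, against 4.07 and 25.7 in 20NV.

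Other cuticle members had closer suffixes at 20° in SD-S. TCALIF_03370 (cuticular protein 55) stood at 233 and 228 in 20V, against 87.7 and 78.8 in 20NV. TCALIF_10125 stood at 80.7 and 95 in 20V, against 7.13 and 17.2 in 20NV. Contig59_58 (cuticular protein 144) stood at 193 and 202 in 20V, against 58.5 and 45.6 in 20NV. The low-level cuticle members TCALIF_10124, TCALIF_10126, TCALIF_12408, comp32809_c0_seq1_18013 and comp41096_c0_seq1_26055 lay between 7.74 and 25.2 in 20V, against 2.54 to 5.86 in 20NV. The 56 cuticle genes on this scale that were not members, which can include set-aside genes, summed to 2999 and 3189 in 20V, against 1257 and 1358 in 20NV. These are the libraries that the rule read, so the sums are a description with no test. The median log2 level of these 56 genes, each centred on its mean over the 8 libraries, was -0.10 and -0.07 in 20V, against -0.29 and -0.20 in 20NV, a smaller difference than that of the sums.

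The chitin deacetylase comp49275_c0_seq1_39258 stood at 109 and 115 in 20V, against 50.7 and 31.1 in 20NV, and the second one, TCALIF_10399, at 12.1 and 11.6 in 20V, against 2.54 and 3.31 in 20NV. Eclosion hormone (comp44946_c0_seq1_30891), a neuropeptide that sets off the shedding of the old cuticle in insects, stood at 15.6 and 14.9 in 20V, against 6.28 and 4.06 in 20NV. Chorion peroxidase (TCALIF_13287), which hardens the eggshell in insects, stood at 146 and 160 in 20V, against 72.3 and 63.5 in 20NV. The 22 other reproduction genes on this scale summed to 19158 and 21405 in 20V, against 25079 and 30112 in 20NV, the opposite order to the chorion peroxidase, and their part in the members' levels was not tested.

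Of the 4 small heat-shock members, 3 were higher in all 4 libraries at 28° than in 20NV by a wide margin in SD-S. TCALIF_06394 stood at 445 and 577 in 20V, against 91.3 and 122 in 20NV, and at 688 and 856 in 28V, against 887 and 611 in 28ST. TCALIF_11866 stood at 30.8 and 44.7 in 20V, against 6.45 and 11.2 in 20NV, and at 49.9 and 55.2 in 28V, against 98.3 and 83.3 in 28ST. TCALIF_13523 stood at 251 and 336 in 20V, against 34.4 and 43.3 in 20NV, and at 267 and 392 in 28V, against 207 and 138 in 28ST. All 3 were lowest in the 20NV libraries, and 28ST reached or passed 20V in the first and second of them but not in the third. The fourth, comp47454_c0_seq1_35179, stood at 54.7 and 49.2 in 20V, against 21.04 and 19.5 in 20NV, so its 28V values of 25.9 and 23.1 lay near 20NV and its 28ST values of 46.7 and 60.3 near 20V. The 8 small heat-shock genes that were not members summed to 189 and 241 in 20V, against 219 and 179 in 20NV, so these groups overlapped.

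**Figure D2:**
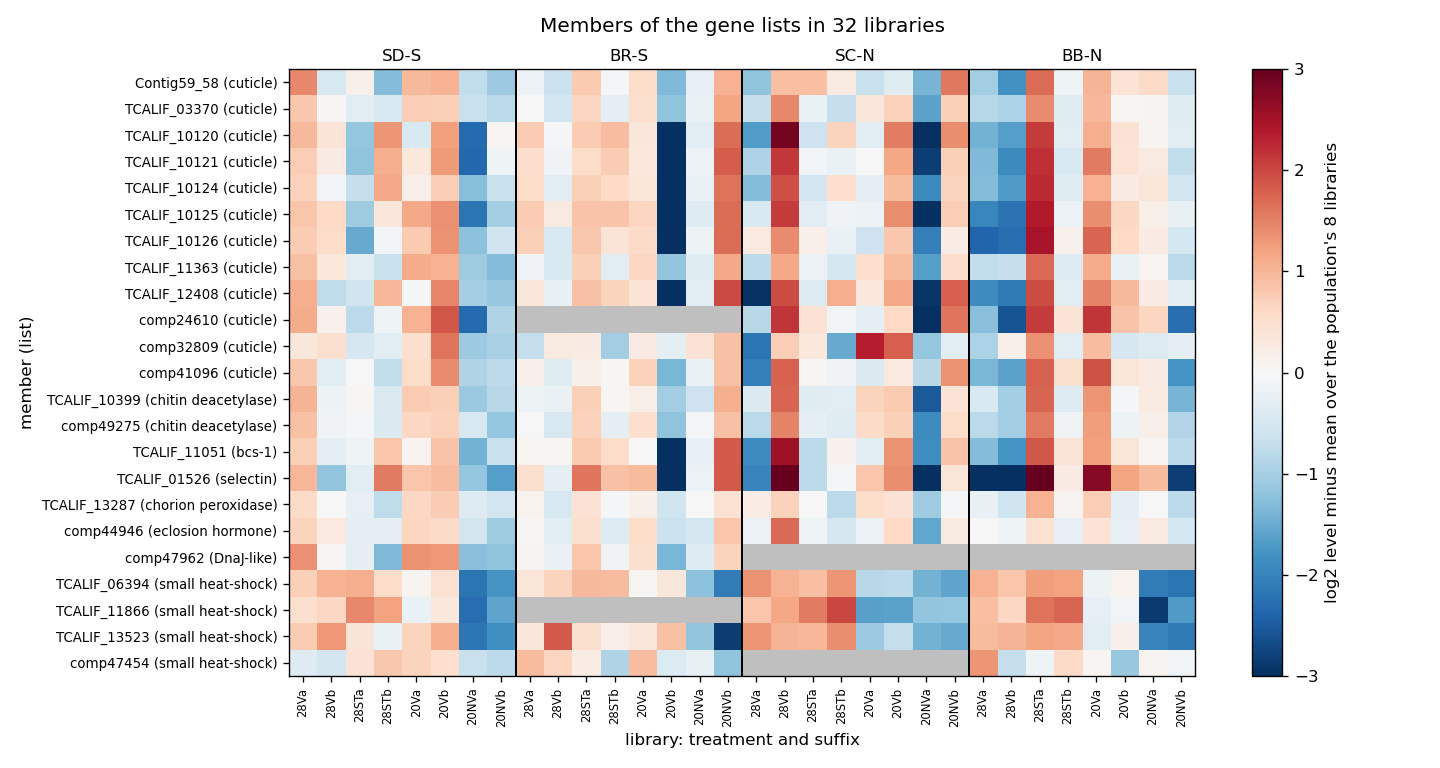
Log2 level of the 23 members that belong to a gene list, relative to each gene's mean over the 8 libraries of its population, in 32 libraries ordered by population, treatment (28V, 28ST, 20V, 20NV) and suffix (a, b), with grey where a gene was not in every table of a population. Most cuticle, chitin deacetylase, bcs-1 and selectin members change together from library to library, for example mostly low in the BR-S 20V library of suffix b, while TCALIF_06394, TCALIF_11866 and TCALIF_13523 are lowest in libraries of a 20° treatment.

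The members in other populations came from libraries that the rule did not use. They numbered 128 in the 20V and 20NV table of BR-S, 124 in that of SC-N and 127 in that of BB-N, and 115 were in that table in all 4 populations. The members' median log2 fold change of 20V over 20NV was -0.61 for BR-S, 0.40 for SC-N and 0.83 for BB-N, and the medians of all genes were 0.00, 0.02 and -0.00. The 3 populations thus differed in the sign of the median. A test of the difference between populations (limma across both tables, chosen after the data were seen) called 0 members for any of the 3 pairs of populations. Over all genes it called 0 of 15821 between BR-S and BB-N, 1 of 15962 between BR-S and SC-N and 0 of 16439 between SC-N and BB-N. The absence of calls is thus not particular to the members. At an unadjusted p under 0.05 the test gave 24 of 123 members between BR-S and BB-N, 21 of 119 between BR-S and SC-N and 52 of 119 between SC-N and BB-N (4.94%, 21.2% and 28.4% of all genes).

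In BB-N many members rose in 20V. The test called 55 of 127 members higher in 20V (1.16% of all genes) and 3 lower (1.32%). In both suffixes 45 were at least 2 times higher (1.26%). The edgeR quasi-likelihood test called 33 higher (0.628%) and 1 lower (0.689%), and the likelihood ratio test called 73 higher (2.44%) and 9 lower (3.22%). The count rested on the block: without it, 2 members were called higher (0.0785% of all genes) and 1 lower (0.0504%), and fits without 1 library (which have no block) called 0 without the 20NV library of suffix a, 1 without that of suffix b and 2 without either 20V library, all higher (0.0168% to 0.0673% of all genes).

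The members of largest change in BB-N included TCALIF_01412 and TCALIF_02545, which also had large ratios in SD-S. TCALIF_02545, with no description, stood at 460 and 189 in 20V, against 134 and 7.40 in 20NV (log2 fold change 3.13 ± 0.53, adjusted p = 0.031 in limma). The e-selectin precursor TCALIF_01526, named after a vertebrate cell adhesion protein, stood at 262 and 88.3 in 20V, against 76.3 and 4.51 in 20NV (log2 fold change 2.89 ± 0.44, adjusted p = 0.024 in limma). Flexible cuticle protein 12 precursor (comp24610_c0_seq1_13069) stood at 207 and 82.7 in 20V, against 71.8 and 8.45 in 20NV (log2 fold change 2.33 ± 0.33, adjusted p = 0.020 in limma). In all 3 genes suffix a was higher than suffix b in both treatments, and the change was larger in suffix b. TCALIF_13700, TCALIF_01412 and comp43210_c0_seq1_28629 rose by 2.44, 2.35 and 2.18 on the log2 scale, with adjusted p-values of 0.027, 0.018 and 0.025 in limma. None of these 6 kept its call when any 1 library was left out, and the 20NV libraries moved the sizes most. Without that of suffix a the log2 fold change was 5.14 for TCALIF_02545, 4.80 for TCALIF_01526, 4.48 for TCALIF_13700, 3.98 for TCALIF_01412, 3.80 for comp24610_c0_seq1_13069 and 2.99 for comp43210_c0_seq1_28629. Without that of suffix b these were 1.13, 0.99, 0.40, 0.73, 0.86 and 1.36 in that order.

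Cuticle members were prominent among these calls, 8 of 12 rising in BB-N 20V and none falling, with 24 of the 91 cuticle genes tested rising and 2 falling. TCALIF_10121 stood at 244 and 109 in 20V, against 99.1 and 49.1 in 20NV (log2 fold change 1.22 ± 0.14, adjusted p = 0.012 in limma). TCALIF_10125 stood at 250 and 145 in 20V, against 107 and 80.4 in 20NV (log2 fold change 1.03 ± 0.16, adjusted p = 0.025 in limma). TCALIF_10124 missed the threshold at 39.8 and 22.1 in 20V, against 24.2 and 12.3 in 20NV (adjusted p = 0.093 in limma). Both chitin deacetylase members rose as well, with none of the other chitin enzymes tested (16 with the members) called.

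Of the 4 small heat-shock members, 3 rose in BB-N 20V. TCALIF_06394 stood at 443 and 523 in 20V, against 114 and 105 in 20NV (log2 fold change 2.12 ± 0.17, adjusted p = 0.0045 in limma), TCALIF_11866 rose by 2.12 ± 0.23 and TCALIF_13523 by 1.96 ± 0.18 on the same scale. The fourth, comp47454_c0_seq1_35179, stood at 26.9 and 10.9 in 20V, against 27.1 and 23.9 in 20NV (adjusted p = 0.45 in limma). In the 3 genes that rose, both 20V libraries lay above both 20NV libraries.

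The 3 members that fell in BB-N 20V were of low level. TCALIF_07167 (hypothetical protein) stood at 0.612 and 0.584 in 20V, against 7.29 and 8.65 in 20NV (log2 fold change -2.48 ± 0.29, adjusted p = 0.011 in limma). Contig695_694 (hypothetical protein) stood at 0.612 and 1.36 in 20V, against 5.83 and 6.05 in 20NV (log2 fold change -1.83 ± 0.30, adjusted p = 0.029 in limma). TCALIF_09338 stood at 14.1 and 6.04 in 20V, against 28.4 and 15.7 in 20NV (log2 fold change -1.10 ± 0.21, adjusted p = 0.047 in limma). In all 3 genes both 20V libraries lay below both 20NV libraries, the opposite order to SD-S. In SD-S itself Contig695_694 stood at 1.10 and 10.9 in 28V, against 0.277 and 13.7 in 28ST. TCALIF_01495, a member with the same description, stood at 1.47 and 8.07 in 28V, against 0.969 and 9.56 in 28ST, and in both genes suffix b was the higher one in either treatment.

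**Figure D3:**
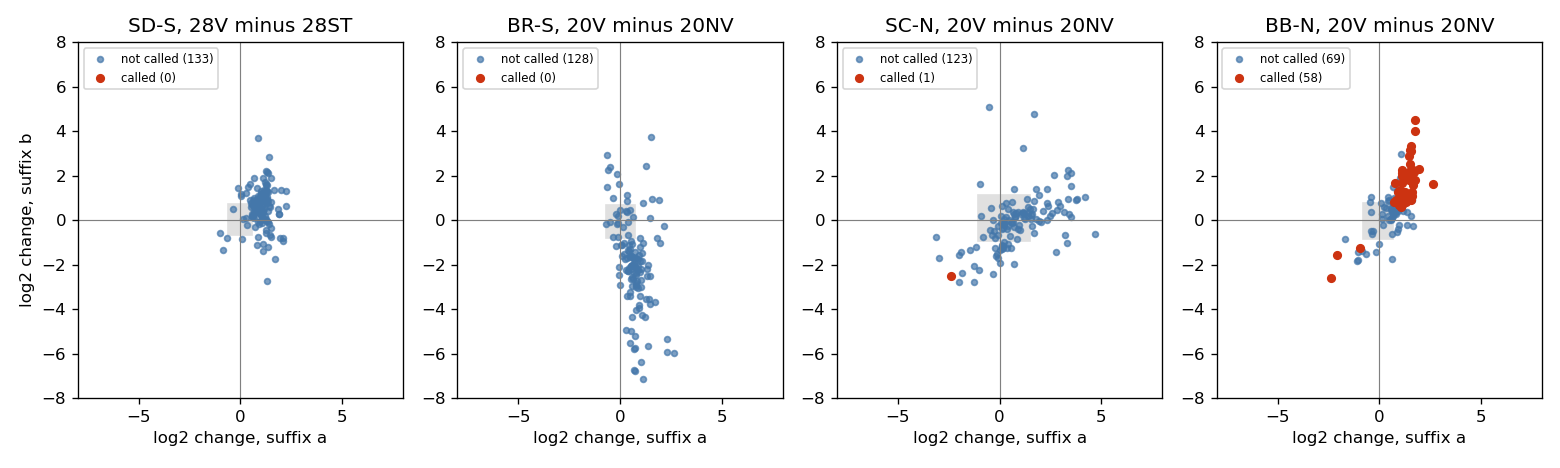
Log2 change (of value plus 1) of each member in suffix a (horizontal) and suffix b (vertical) for 28V minus 28ST in SD-S and 20V minus 20NV in BR-S, SC-N and BB-N, with members past the adjusted p threshold in red and the central 90% of all genes in each suffix as a grey box. Members lie mostly in the upper right in SD-S (0 called of 133) and BB-N (58 called of 127), to the lower right in BR-S (0 of 128, up in suffix a and down in suffix b) and mainly to the right in SC-N (1 of 124).

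In BR-S the 2 suffixes moved in opposite directions. The members' median change of 20V over 20NV was 0.65 for suffix a and -1.97 for suffix b on the log2 scale, and 105 of 128 members (82.0%) had opposite signs in the 2 suffixes, against 52.1% of all genes. No member passed the test in either direction (0% of all genes), with 5 higher (1.51% of all genes) and 0 lower (1.71%) at an unadjusted p under 0.05, 2 higher (0.25%) and 0 lower (0.21%) by the edgeR likelihood ratio test and 0 by the quasi-likelihood test. TCALIF_10121 shows the pattern, at 136 and 7.39 in 20V, against 96.5 and 383 in 20NV. TCALIF_01526 stood at 178 and 1.37 in 20V, against 80.6 and 332 in 20NV. In suffix b these genes were lower in 20V by more than they were higher in suffix a, and the 2 groups overlapped. Without the 20V library of suffix b the median was 0.16, and with any other library left out it was between -1.36 and -0.14.

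Of the 3 small heat-shock members tested in BR-S, the 2 described here had 1 direction in both suffixes. TCALIF_06394 stood at 212 and 259 in 20V, against 87.1 and 47.2 in 20NV (log2 fold change 1.85 ± 0.33, adjusted p = 0.999 in limma). TCALIF_13523 stood at 52.7 and 77.8 in 20V, against 17.6 and 4.93 in 20NV (log2 fold change 2.63 ± 0.55, adjusted p = 0.999 in limma). Neither passed the threshold, but in both genes the 2 treatments did not overlap.

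In SC-N the members' median was near 0 in suffix b. The median change of 20V over 20NV was 0.69 for suffix a and 0.00 for suffix b, with 58 of 124 members (46.8%) higher in both suffixes and 25 (20.16%) lower, against 39.7% and 36.8% of all genes. The test called 0 members higher (0.0546% of all genes) and 1 lower (0.0819%), 33 were higher (17.3%) and 16 lower (14.3%) at an unadjusted p under 0.05, the edgeR likelihood ratio test called 27 higher (7.49%) and 12 lower (3.95%), and the quasi-likelihood test called 0 higher (0.0273%) and 0 lower (0.0546%). The called gene was comp24528_c0_seq1_12991, with no description, at 20.24 and 156 in 20V, against 110 and 888 in 20NV (log2 fold change -2.44 ± 0.14, adjusted p = 0.047 in limma). Its 2 treatments overlapped, because suffix b was the higher one throughout. Its log2 fold change was -0.94 without the 20NV library of suffix b and -3.94 without that of suffix a, and it was called in neither fit. Without the 20NV library of suffix b, 21 members were called higher (1.35% of all genes) and 1 lower (0.349%), and without any other library none was. The median was -0.34 without the 20NV library of suffix a and 1.05 without that of suffix b. The 3 small heat-shock members tested in SC-N did not share 1 direction. TCALIF_11866 stood at 29.8 and 30.7 in 20V, against 41.2 and 42.1 in 20NV (log2 fold change -0.45 ± 0.14). TCALIF_06394 and TCALIF_13523 were higher in 20V, with log2 fold changes of 0.70 ± 0.14 and 0.55 ± 0.18. In these 3 genes the 2 treatments did not overlap, and none passed the threshold. Muscle genes differed between these treatments too, summing to 34519 and 30863 in 20V, against 9837 and 12801 in 20NV over 40 genes, and their part in the members' values was not tested.

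The members' level was also followed library by library. After each gene was centred on its mean over the 8 libraries of a population, the members' median in SD-S was 0.83 and 1.04 in 20V, against -0.85 and -0.98 in 20NV, and it was 0.80 and 0.05 in 28V, against -0.22 and -0.51 in 28ST (log2 scale). The 2 libraries of a treatment differed by 0.13 to 0.74 in SD-S. In BR-S they differed by 1.56 in 20V and by 0.99 in 20NV, in SC-N by 2.04 in 28V and by 1.67 in 20NV, and in BB-N by 1.51 in 28ST and by 0.99 in 20V. The medians of all genes stayed between -0.03 and 0.05 in every library. The gap in SC-N 28V exceeded the difference of 1.84 between the 20V and 20NV means of SD-S, and the other gaps were smaller than it.

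**Figure D4:**
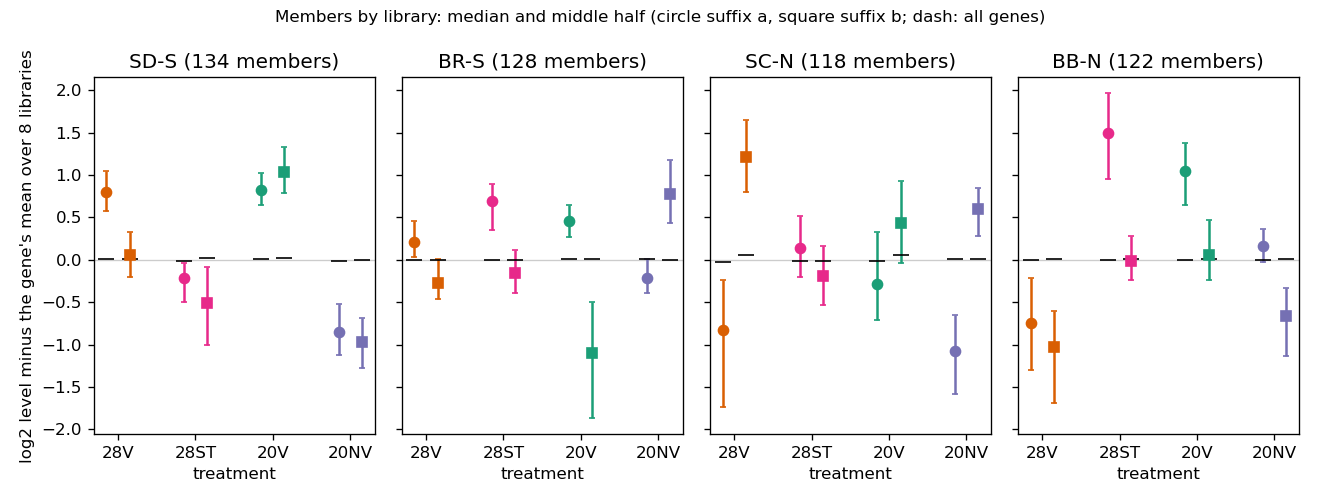
Median (point) and interquartile range (bar) over the members of the log2 level minus each gene's mean over 8 libraries, in the 32 libraries of 4 populations, by treatment (28V, 28ST, 20V, 20NV) and suffix (circle a, square b), with a dash for the median of all genes. In SD-S the 20V libraries (0.83 and 1.04) lie above the 20NV libraries (-0.85 and -0.98), while in SC-N the 2 libraries of 28V lie 2.04 apart and in BR-S those of 20V lie 1.56 apart.

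Most members shared these ups and downs outside SD-S. Across the 24 libraries of BR-S, SC-N and BB-N, Pearson's r between a member and the median of the other members had a median of 0.88 over the 108 members in every table of these populations, and 89 of the 108 (82.4%) had an r of at least 0.7. Of 14334 other genes, 211 (1.47%) had an r of at least 0.7 with the members' median, and the median r of all 14334 was 0.00. The 211 include genes that the rule set aside, such as TCALIF_08785 (r of 0.96) and TCALIF_09501 (0.93). The values of r are descriptions across libraries that share their preparation, with no test. Among the 211 genes, 38 (18.0%) belonged to the cuticle list, against 0.405% of the other genes as a whole. The 181 of them on the SD-S scale had a median change of 0.29 in suffix a and 0.34 in suffix b for 20V over 20NV in SD-S, against 0.03 and -0.02 over all other genes. That change is read from the libraries that the rule used, so it is also a description with no test.

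By group, 11 cuticle members had r between 0.51 and 0.94, the 2 chitin deacetylases had 0.95 and 0.89, the e-selectin precursor TCALIF_01526 0.93, the bcs-1 member TCALIF_11051 0.92, chorion peroxidase 0.80 and eclosion hormone 0.78. The cuticle member of lowest r was comp32809_c0_seq1_18013. The small heat-shock members TCALIF_06394 and TCALIF_13523 had an r of 0.01 and -0.08, and 7 of the 108 members had a negative r, the lowest being TCALIF_07288 at -0.29 (named after its value was seen).

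**Figure D5:**
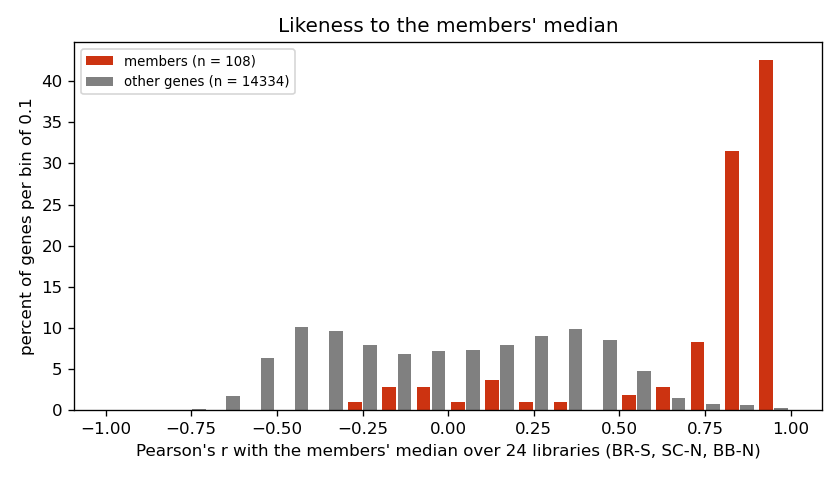
Share of genes by Pearson's r with the members' median over the 24 libraries of BB-N, BR-S and SC-N, in bins of 0.1, for 108 members (red, each against the median of the other members) and 14334 other genes (grey). Most members lie at r of 0.7 or more (89 of 108), while 211 of the other genes do.

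Acute warming of nonvariable animals, 28ST against 20NV, shares its 20NV libraries with 20V against 20NV. The members' median log2 fold change was -0.06 for BR-S, 0.19 for SC-N and 0.95 for BB-N. In BR-S 1 of 128 members was called higher (0.115% of all genes) and 0 lower (0.00573%), and in SC-N 0 of 124 were called higher (0.0222%) or lower (0%), with 4 higher (2.16%) and 0 lower (0.67%) at an unadjusted p under 0.05, 3 higher (0.288%) and 0 lower (0.0111%) by the edgeR likelihood ratio test and 0 by the quasi-likelihood test. In BB-N 14 of 128 were called higher (0.316%) and 0 lower (0.0113%). In BR-S and SC-N the suffixes again pointed in opposite directions, with medians of 0.86 and -0.94 in BR-S and of 1.34 and -0.87 in SC-N. Without the 20NV library of suffix b in SC-N 47 members were called higher (1.96% of all genes) and the median was 1.01, and without that of suffix a 3 were called higher (0.355%) and 9 lower (0.604%) with a median of -0.73. In BR-S the median was 0.47 without the 20NV library of suffix b and -0.54 without that of suffix a. It was 0.35 without the BR-S 28ST library of suffix b. In SC-N the median was -0.03 without the 28ST library of suffix a. In both populations the sign of the median thus changed with the library left out.

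Small heat-shock members were among the genes that rose. In BR-S the called gene was TCALIF_06394, at 398 and 385 in 28ST, against 86.0 and 46.2 in 20NV (log2 fold change 2.61 ± 0.24, adjusted p = 0.039 in limma), and it was not called when any 1 library was left out. In BB-N, TCALIF_11866 stood at 483 and 524 in 28ST, against 20.5 and 47.2 in 20NV (log2 fold change 3.97 ± 0.27, adjusted p = 0.0068 in limma), and TCALIF_06394 stood at 1093 and 1075 in 28ST, against 108 and 99.98 in 20NV (log2 fold change 3.37 ± 0.20, adjusted p = 0.0042 in limma). TCALIF_13523 rose by 3.20 ± 0.18 there. In SC-N, TCALIF_11866 stood at 298 and 410 in 28ST, against 43.2 and 44.1 in 20NV, which missed the threshold (log2 fold change 2.97 ± 0.17, adjusted p = 0.091 in limma). In each of these the 2 treatments did not overlap.

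Other members called in BB-N 28ST included TCALIF_02545, TCALIF_01526 and TCALIF_01412, which rose by 3.82 ± 0.35, 3.02 ± 0.18 and 2.92 ± 0.21 on the log2 scale. TCALIF_01526 stood at 573 and 43.2 in 28ST, against 72.1 and 4.29 in 20NV. Suffix a was above suffix b in both treatments, so the groups overlapped, while the change was alike in the 2 suffixes. None of these 3 kept its call when any 1 library was left out. For TCALIF_01526 the log2 fold change was 4.91 without the 20NV library of suffix a and 1.12 without that of suffix b, and it was 1.17 without the 28ST library of suffix a and 4.87 without that of suffix b. None of the 12 cuticle members was called in this comparison in BB-N, where 1 of 90 cuticle genes rose and 8 of 12 small heat-shock genes rose, with none falling in either list. The members' median in BB-N was 1.34 without the 20NV library of suffix a and 0.54 without that of suffix b. It was 0.23 without the 28ST library of suffix a and 1.70 without that of suffix b.

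Daily warming within the variable regime, 28V against 20V, shares its 20V libraries with 20V against 20NV, with the opposite sign. In BB-N the members fell: the median log2 fold change was -1.36, and the test called 35 of 122 members lower (0.73% of all genes) and 0 higher (0.0962%). Both 28V libraries lay below both 20V libraries for 90 members (17.5% of all genes), and 58 were at least 2 times lower in both suffixes (1.73%). The likelihood ratio test in edgeR called 83 lower (2.18%) and 2 higher (0.606%). Without the block 6 were called lower (0.0906% of all genes). Without the 20V library of suffix a 8 were called lower (0.164%), and without that of suffix b 50 lower (0.538%) and 1 higher (0.0962%). Without the 28V library of suffix b 10 were called lower (0.181%) and 4 higher (0.368%), and without that of suffix a 23 lower (0.442%).

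The largest fall was that of TCALIF_02545, at 7.83 and 4.44 in 28V, against 466 and 193 in 20V (log2 fold change -5.44 ± 0.16, adjusted p = 0.011 in limma). TCALIF_01526 stood at 3.40 and 3.87 in 28V, against 265 and 90.1 in 20V (log2 fold change -5.07 ± 0.42, adjusted p = 0.030 in limma). The cuticle protein TCALIF_10126 stood at 2.21 and 2.39 in 28V, against 55.4 and 24.4 in 20V (log2 fold change -3.52 ± 0.34, adjusted p = 0.041 in limma). The treatments did not overlap in these genes. comp43208_c1_seq1_28628, TCALIF_01412 and comp43210_c0_seq1_28629 fell as well (log2 fold changes of -4.24, -4.14 and -4.10), with adjusted p-values of 0.0049, 0.012 and 0.016 in limma.

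Cuticle members fell with them, 8 of 12 in BB-N 28V, where 33 of the 91 cuticle genes tested fell and none rose. The bcs-1 member TCALIF_11051, of a family first described in barnacle larvae, stood at 2.55 and 1.48 in 28V, against 19.4 and 10.2 in 20V (log2 fold change -2.35 ± 0.22, adjusted p = 0.038 in limma), and 4 of 6 bcs-1 genes and 4 of 10 lectin and selectin genes fell. The small heat-shock members did not join in: TCALIF_06394 stood at 1024 and 882 in 28V, against 448 and 534 in 20V (log2 fold change 0.96 ± 0.15, adjusted p = 0.12 in limma). In that gene the 2 treatments did not overlap, and 28V was the higher one.

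In BR-S 28V against 20V, 0 of 128 members were called higher (0.142% of all genes) and 1 lower (0.0456%), with a median of 0.25. The called gene, comp42346_c0_seq1_27571, stood at 69.1 and 46.5 in 28V, against 282 and 101 in 20V (log2 fold change -1.56 ± 0.23, adjusted p = 0.025 in limma). The cuticle gene TCALIF_10121 differed mainly in suffix b, standing at 159 and 102 in 28V, against 140 and 7.54 in 20V. Without the 20V library of suffix a 47 members were called higher (1.07% of all genes), while without that of suffix b 0 were called higher (0.359%) and 1 lower (0.78%), and the median was then 0.94 and -0.53 in that order. Without either 28V library no member was called.

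In SC-N 28V against 20V, 7 of 126 members were called higher (0.519% of all genes) and 6 lower (1.52%), with a median of 0.04 and suffix medians of -0.65 and 0.66. In this fit limma set no limit on the prior degrees of freedom, so all genes of a level shared 1 variance. The likelihood ratio test in edgeR called 4 higher (0.153%) and 0 lower (0.0218%), the quasi-likelihood test 5 higher (0.289%) and 1 lower (0.426%), and the fit without the block 0 in either direction (0% of all genes). The 28V library of suffix a lay 2.04 below its partner in the members' median, and without it 0 members were called and the median was 1.13. Without the 28V library of suffix b 4 members were called higher (0.715% of all genes) and 21 lower (4.54%) with a median of -1.16, without the 20V library of suffix b 1 was called higher (0.322%) and 1 lower (0.0273%), and without that of suffix a none was called. Reproduction genes (21 genes, none a member) summed to 769 and 32740 RPM in 28V, against 10559 and 53231 in 20V, and their part in the members' values was not tested.

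The 3 small heat-shock members tested all rose in SC-N 28V. TCALIF_11866 stood at 168 and 210 in 28V, against 29.3 and 30.1 in 20V (log2 fold change 2.62 ± 0.40, adjusted p = 2.57e-08 in limma). TCALIF_06394 stood at 456 and 367 in 28V, against 100.3 and 103 in 20V (log2 fold change 2.00 ± 0.45, adjusted p = 0.0011 in limma). In both genes the 2 treatments did not overlap, and TCALIF_13523 rose by 2.08 ± 0.40 on the log2 scale (adjusted p = 5.01e-05 in limma). The cuticle protein comp32809_c0_seq1_18013 stood at 2.48 and 24.9 in 28V, against 78.7 and 53.1 in 20V (log2 fold change -2.79 ± 0.41, adjusted p = 8.19e-09 in limma), and TCALIF_04494 stood at 38.5 and 565 in 28V, against 446 and 552 in 20V (log2 fold change -1.73 ± 0.47, adjusted p = 0.017 in limma). Those that rose further included comp42346_c0_seq1_27571, with no description, and a MORN repeat protein (TCALIF_12300). For TCALIF_04494 the fall was in suffix a alone, and without the 28V library of that suffix its log2 fold change was 0.19 and that of comp32809_c0_seq1_18013 -1.34, neither past the threshold. The 3 small heat-shock members kept their call only without the 28V library of suffix b among fits without 1 library, with log2 fold changes between 1.84 and 2.78 in all of those fits.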

How the data were processed

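RNA-seq of 32 pools of adult copepods was deposited as 12 tables, 3 comparisons for each of 4 populations. The authors mapped reads in CLC Genomics Workbench to genome-derived and then to de novo transcripts, counted unique reads, kept genes with at least 2 CPM in at least 2 libraries, and scaled the values in edgeR. The deposited signal values are RPM scaled by TMM factors. Dividing each column by the worth of 1 read gave whole reads for 100% of entries (tolerance 0.1 read), and these reads went into the count tests. The authors' columns of fold changes and p-values were not used, nor were 4 per-sample columns of a BB-N table from which only gene descriptions were taken.

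Levels were tested as log2 of the value plus 1 with limma 3.58.1 (R 4.3.3), a variance trend and the column suffix as a block, and p-values were adjusted by Benjamini-Hochberg over all genes with a threshold of 0.05. The authors' test was the edgeR likelihood ratio test with lane as a block, used here as an alternative (edgeR 4.0.16) beside the quasi-likelihood test. SD-S 28V and 28ST stood in separate tables, so their recovered reads were scaled together. Other alternatives were no block, pseudocounts of 0.25 and 4, a filter on a mean of at least 10, no variance trend, DESeq2 1.42.0 size factors (SD-S 28V against 28ST) and leaving out each library. The scripts were tested on simulated data with 200 changed genes.

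The members and gene lists were chosen with earlier results of these data known. Genes named were the 12 members of largest smaller ratio, every member in a list, at most 6 called members per comparison and direction, the genes on both sides of each limit, and any member at 0 in both 20NV libraries (0 were). No label ties the suffix to a replicate number, and it was read as the lane. In the paper the second replicate of each pair had more mapped reads than the first, as suffix b did here. The paper also states that the second replicates of SD-S and SC-N were run on another sequencer model. In those populations the suffix may thus carry the instrument as well as the lane. Libraries of a treatment were separate pools of 1 population. With the suffix as a block, a difference between suffixes that both treatments share is removed. The p-values of those fits therefore measure how alike the change was in suffix a and suffix b, and not the full spread between pools. A gene whose treatments overlap can thus be called. The fits without the block keep the difference between suffixes in the spread. The paper describes the libraries as unstranded, so reads of overlapping or antisense genes cannot be told apart. Of 21556 identifiers, 0 matched the reference gene list, so no positions or sequences are given.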

Additional observations from a re-analysis of the deposited data

How the results depend on the processing

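The suffix block mattered to most counts of called members. With no replicate block, 20V against 20NV gave 3 calls for BB-N (0.0785% of all genes higher, 0.0504% lower) and 0 for SC-N (0.12% and 0.196%). For 28ST against 20NV it gave 3 for BB-N (0.192% and 0%), 3 for SC-N (0.0665% and 0%) and 0 for BR-S (0% in either direction). For 28V against 20V it gave 6 for BB-N (0.0283% and 0.0906%), 0 for SC-N and 0 for BR-S (0% in either direction for both). With the edgeR likelihood ratio test, 28V against 28ST gave 44 for SD-S, and 20V against 20NV gave 39 for SC-N and 2 for BR-S. For 28ST against 20NV it gave 52 for BB-N (205 of all 17730 genes higher, 33 lower), 3 for SC-N and 3 for BR-S (74 of all 17460 genes higher, 11 lower). For 28V against 20V it gave 85 for BB-N, 4 for SC-N and 3 for BR-S (66 of all 17554 genes higher, 34 lower). Shares for the other counts of this test are given above. With the quasi-likelihood test, 20V against 20NV gave 34 for BB-N and 0 for SC-N, and 28V against 20V gave 6 for SC-N, with shares given above. For 28ST against 20NV it gave 9 for BB-N (36 of all 17730 genes higher, 1 lower) and 0 for BR-S (7 of all 17460 genes higher, 0 lower). For 28V against 20V it gave 0 for BR-S (19 of all 17554 genes higher, 4 lower). With the filter on the mean, 20V against 20NV gave 31 for BB-N and 0 for SC-N, 28ST against 20NV gave 24 for BB-N and 0 for BR-S, and 28V against 20V gave 8 for SC-N and 0 for BR-S. With no variance trend, 20V against 20NV gave 1 for BB-N and 0 for SC-N, 28ST against 20NV gave 0 for BB-N and for BR-S, and 28V against 20V gave 0 for BB-N and for BR-S. A pseudocount of 0.25 left 0 calls for SC-N 20V against 20NV. No share of all genes is at hand for the filter, variance-trend and pseudocount fits. Their counts therefore cannot tell a shift in the members from a shift in all genes.

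Leaving out 1 library also moved the counts (a treatment then keeps a lone library, assumed to vary like the other treatment). The calls ran between 0 and 1 for SD-S 28V against 28ST. For 20V against 20NV they ran between 0 and 22 for SC-N and 0 and 2 for BB-N, for 28ST against 20NV between 0 and 47 for SC-N and 0 and 14 for BB-N with 0 throughout for BR-S, and for 28V against 20V between 0 and 47 for BR-S, 0 and 25 for SC-N and 8 and 51 for BB-N. The members' median ran between 0.53 and 1.18 for SD-S 28V against 28ST. For 20V against 20NV it ran between -0.34 and 1.05 for SC-N and 0.35 and 1.30 for BB-N, for 28ST against 20NV between 0.23 and 1.70 for BB-N, -0.54 and 0.47 for BR-S and -0.73 and 1.01 for SC-N, and for 28V against 20V between -0.53 and 0.94 for BR-S, -1.16 and 1.13 for SC-N and -1.92 and -0.83 for BB-N. The log2 fold change of TCALIF_04494 for SC-N 28V against 20V ran between -3.65 and 0.19 (0.19 without the 28V library of suffix a), the only sign change among 36 named calls. Of those calls, 7 of 36 were kept with no replicate block and 42 of 144 in the fits without 1 library. The cause of these shifts was not tested. With 2 libraries per treatment, few residual degrees of freedom limit every test.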

Other observations

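The population difference was also tested for the warming comparisons (limma, chosen after the data were seen), and 0 members passed the adjusted threshold for any pair of populations. Over all genes 0 passed as well, for every pair. At an unadjusted p under 0.05, 28V against 20V differed between BR-S and BB-N for 81 of 118 members (4.19% of all genes), between SC-N and BB-N for 54 of 117 (3.35%) and between BR-S and SC-N for 8 of 121 (2.10%). The median difference in log2 fold change was 1.51 for BR-S minus BB-N, 1.35 for SC-N minus BB-N and 0.45 for BR-S minus SC-N. For 28ST against 20NV the counts were 12 of 124 between BR-S and BB-N (4.04%), 0 of 118 between BR-S and SC-N (1.24%) and 17 of 118 between SC-N and BB-N (1.65%).

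Of the 181 other genes that followed the members' median outside SD-S and were on the SD-S scale, 103 were higher in SD-S 20V than in 20NV in both suffixes. The share of all other genes was not computed. The libraries are those that the rule read, and the 181 can include genes that it set aside, so this is a description with no test.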
